A study of Homo sapiens with 6 samples.

Results

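The 29 genes described here encode peroxisome proteins and were found by symbol among the 58735 genes of the FPKM table: 12 peroxins, 13 enzymes and 4 membrane proteins. The RNA came from HCT116, a human colorectal carcinoma cell line, in 3 control libraries (CTR), whose genotype is labelled WT, and 3 libraries of cells that received miR-8485 mimics at 50 nM. Mimics are synthetic copies of a mature miRNA, and by the general protocol of transfection, which allows for other times, cells were collected after 48 h. The control cells had a control transfection whose sequence and dose are not given in the sources used here, the mimic was introduced by transient transfection, and all 6 libraries come from 1 cell line. The replicates were described as independent biological replicates. FPKM is the number of fragments on a gene scaled by the length of the gene and by the depth of the library, so levels of different genes can be compared per length. The lengths are those listed for the genes, and the order of levels between genes depends on them.

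Peroxisomes are organelles bounded by a single membrane that break down very long-chain and branched fatty acids, remove the hydrogen peroxide this produces, and begin the synthesis of ether lipids. Peroxins, the products of PEX genes, build the organelle: some insert its membrane proteins, others carry folded enzymes from the cytosol through a docking complex and return the carriers with the help of a ubiquitin ligase and an ATPase. Most matrix enzymes carry a targeting signal at their carboxy terminus that PEX5 recognises, and a few carry one at their amino terminus that PEX7 recognises. The comparison asks how the transcripts of this machinery and of its cargo differed between miR-8485-transfected and control cells.

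Fragments on listed genes numbered 17473874 to 18480047 per library. Fragments of mitochondrial genes made up 7.94% to 10.2% of the CTR libraries and 10.6% to 11.3% of the miR-8485 libraries. CTR replicate 1 stood apart slightly, with a chi-square per gene of 11.1 and 8.91 against the other CTR libraries, where the other pairs within a group had 2.801 to 4.05 and pairs between groups 66.4 to 76.1. The epithelial genes EPCAM (127 to 148 FPKM) and CDH1 (18.7 to 20.4 FPKM) were expressed in all libraries. PTPRC of leukocytes, COL1A2 of fibroblasts and PECAM1 of endothelium stayed below 0.1 FPKM, while COL1A1 was at 4.05 to 4.38 FPKM in CTR and 6.27 to 6.40 FPKM in miR-8485. Of the other epithelial genes, KRT8 and KRT18 were lower and CDX2 was higher in all miR-8485 libraries than in all CTR libraries. The part of these differences in the results was not tested, but per non-mitochondrial fragment PEX3 was the only member to lose its call (limma adjusted p = 0.0661).

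Of the 27 members with a mean of at least 1 FPKM, 11 rose and 5 fell after miR-8485 at an adjusted p under 0.05, and these are called upregulated and downregulated. The test was limma on log2(FPKM + 0.1), Benjamini-Hochberg adjusted over all 12349 genes that passed this filter, and its fold changes (log2FC, miR-8485 against CTR) understate the change of low genes. Together these were 59.3% of the members tested, where 59.6% of all tested genes were called. The share of called members was thus close to the background. By direction, 40.7% of the members were upregulated against 29.1% of all tested genes, and 18.5% were downregulated against 30.5%. The members were chosen with earlier results of these data known. After rescaling to TPM, a scale on which every library has the same sum over genes, 9 members were upregulated and 7 downregulated, or 33.3% and 25.9%, against 21.2% and 38.3% of all tested genes. The count of 5 downregulated members was 4 (14.8%) without CTR replicate 1 or 2 and 3 (11.1%) without CTR replicate 3, miR-8485 replicate 1 or miR-8485 replicate 3. Over all tested genes, 27.4% to 29.7% were downregulated in these runs. The log2FC values ran from -0.74 for FAR1 to 0.65 for PEX16. The miR-8485 libraries all lay above the CTR libraries for 11 members and below them for 6, where 66.5% of all tested genes had no overlap in either direction. AMACR and CROT lay below the filter. Because the libraries were made from bulk RNA, fewer cells with a transcript and less of it per cell cannot be told apart.

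**Figure D1:**
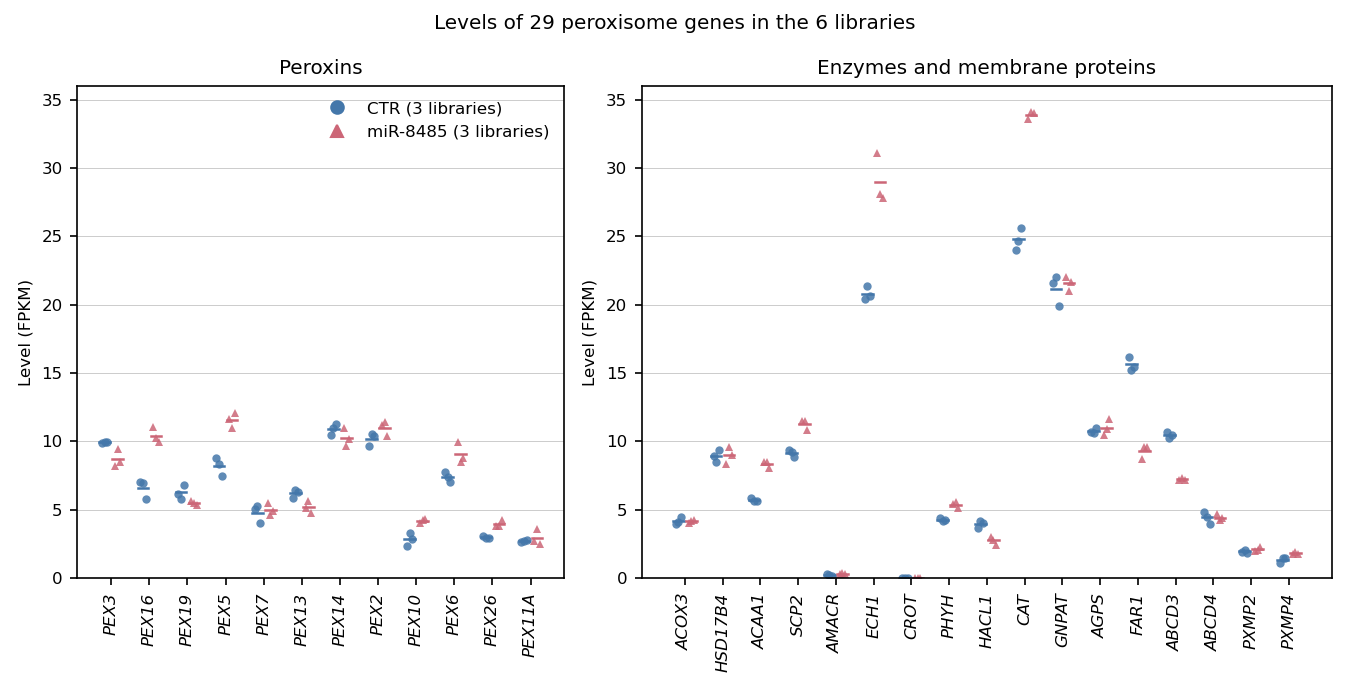
Level in FPKM (vertical axis, linear) of each of the 29 members (horizontal axis) in the 3 CTR libraries (circles) and the 3 miR-8485 libraries (triangles), with a line at each group mean. CAT and ECH1 are the highest members in the miR-8485 libraries, FAR1 and ABCD3 lie clearly lower there than in CTR, and AMACR and CROT are near 0 in all 6 libraries.

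Membrane proteins of the peroxisome are inserted by PEX3, PEX16 and PEX19, and these transcripts moved in different directions. PEX16 (hg38, chromosome 11, minus strand, 45909669 to 45918812) encodes the membrane receptor that recruits PEX3. It was measured at 7.05, 6.97 and 5.79 FPKM in CTR replicates 1 to 3 and at 11.03, 10.3 and 9.97 FPKM in miR-8485 replicates 1 to 3. All miR-8485 libraries lay above all CTR libraries, and the log2FC of 0.65 ± 0.09 (SE, limma adjusted p = 0.00048) was the largest rise among the members. PEX3, the docking protein for PEX19 on chromosome 6 (143450807 to 143490010), had 9.88, 9.95 and 9.95 FPKM in CTR and 8.17, 9.48 and 8.51 FPKM in miR-8485. The groups did not overlap, but the fall of 0.19 on the log2 scale (limma adjusted p = 0.0361) was past the threshold by a small margin. It was lost without CTR replicate 1 (adjusted p = 0.0636), CTR replicate 2 (0.0833), CTR replicate 3 (0.083), miR-8485 replicate 1 (0.11) or miR-8485 replicate 3 (0.104), and with the trend against GC content removed (log2FC -0.04, adjusted p = 0.545). The call was also lost with no filter (limma adjusted p = 0.0787), with no variance trend (0.0533) and in voom on the recovered fragments (0.0922). In all, 10 of 18 alternatives lost it. PEX19, the soluble carrier of membrane proteins, had 6.18, 5.79 and 6.82 FPKM in CTR and 5.65, 5.50 and 5.32 FPKM in miR-8485. The miR-8485 libraries all lay under those of CTR, yet the log2FC of -0.18 (95% interval -0.35 to -0.01) had an adjusted p of 0.0603 in limma, and it was past the threshold only without CTR replicate 2 (adjusted p = 0.0322) and after rescaling to TPM (adjusted p = 0.0107).

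The receptors for matrix enzymes are PEX5 and PEX7. PEX5, on chromosome 12 (7188685 to 7218574), was upregulated from 8.76, 8.32 and 7.48 FPKM in CTR to 11.6, 10.97 and 12.1 FPKM in miR-8485. The groups were well separated, with a log2FC of 0.50 ± 0.07 (SE, limma adjusted p = 0.00077), and this call held in all 18 alternatives. PEX7 had 5.08, 5.24 and 4.06 FPKM in CTR and 5.46, 4.61 and 4.89 FPKM in miR-8485. These groups overlapped, and the 95% interval of the log2FC ran from -0.20 to 0.32.

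At the membrane, the receptors bind PEX13 and PEX14. PEX13, on chromosome 2 (61017225 to 61051990), had 5.87, 6.43 and 6.33 FPKM in CTR and 5.13, 5.67 and 4.74 FPKM in miR-8485, and was downregulated by 0.26 on the log2 scale (limma adjusted p = 0.0232). The groups did not overlap, but the call was lost without CTR replicate 2 (adjusted p = 0.0714), CTR replicate 3 (0.0664), miR-8485 replicate 1 (0.0611) or miR-8485 replicate 3 (0.0742), with no filter (0.0621), and with the GC trend removed (log2FC -0.12, adjusted p = 0.224). PEX14, the highest of the peroxins in CTR, had 10.4, 10.9 and 11.3 FPKM in CTR and 11.01, 9.69 and 10.2 FPKM in miR-8485, with overlapping groups and a 95% interval of the log2FC from -0.23 to 0.06. Within a library, the level of PEX5 relative to that of PEX13 was 1.49, 1.29 and 1.18 in CTR and 2.27, 1.94 and 2.56 in miR-8485. Relative to PEX14 it was 0.839, 0.760 and 0.663 in CTR and 1.06, 1.13 and 1.19 in miR-8485. On the FPKM scale PEX5 thus passed from below to above PEX14, an order that depends on their listed lengths of 5488 and 2995 bases.

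After import, PEX5 is ubiquitinated by a RING ligase that includes PEX2 and PEX10 and extracted by an ATPase that includes PEX6 and is anchored by PEX26. PEX10, on the minus strand of chromosome 1 (2403964 to 2413797), rose from 2.37, 3.30 and 2.87 FPKM to 3.997, 4.25 and 4.30 FPKM, with a log2FC of 0.55 ± 0.12 (SE, limma adjusted p = 0.00508). No CTR library reached the miR-8485 range. The file places its end within RER1 on the opposite strand, over 1481 bases, and RER1 itself, at 17.5 ± 0.891 FPKM (SD, n = 3) in control cells and 17.1 ± 0.205 FPKM (SD, n = 3) after miR-8485, had a log2FC of -0.03 (limma adjusted p = 0.623). Whether the counting used strand is not given in the sources used here. PEX2 had 9.64, 10.6 and 10.4 FPKM in CTR and 11.2, 11.4 and 10.4 FPKM in miR-8485, with overlapping groups and a log2FC of 0.11 (95% interval -0.03 to 0.25).

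Both members of the export step were upregulated. PEX26, on chromosome 22 (18077920 to 18131138), had 3.06, 2.96 and 2.95 FPKM in CTR and 3.85, 3.85 and 4.25 FPKM in miR-8485, a log2FC of 0.40 (limma adjusted p = 0.00211). PEX6 had 7.77, 7.38 and 7.06 FPKM in CTR and 9.95, 8.47 and 8.79 FPKM in miR-8485, with a log2FC of 0.29 (limma adjusted p = 0.0116) that fell to 0.17 (adjusted p = 0.0837) after rescaling to TPM. For both genes the miR-8485 libraries lay above all CTR libraries. PEX11A, which elongates the membrane before division, had 2.61, 2.68 and 2.82 FPKM in CTR and 2.69, 3.59 and 2.50 FPKM in miR-8485. Replicate 2 alone was high, and the 95% interval of the log2FC was wide, from -0.22 to 0.41.

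**Figure D2:**
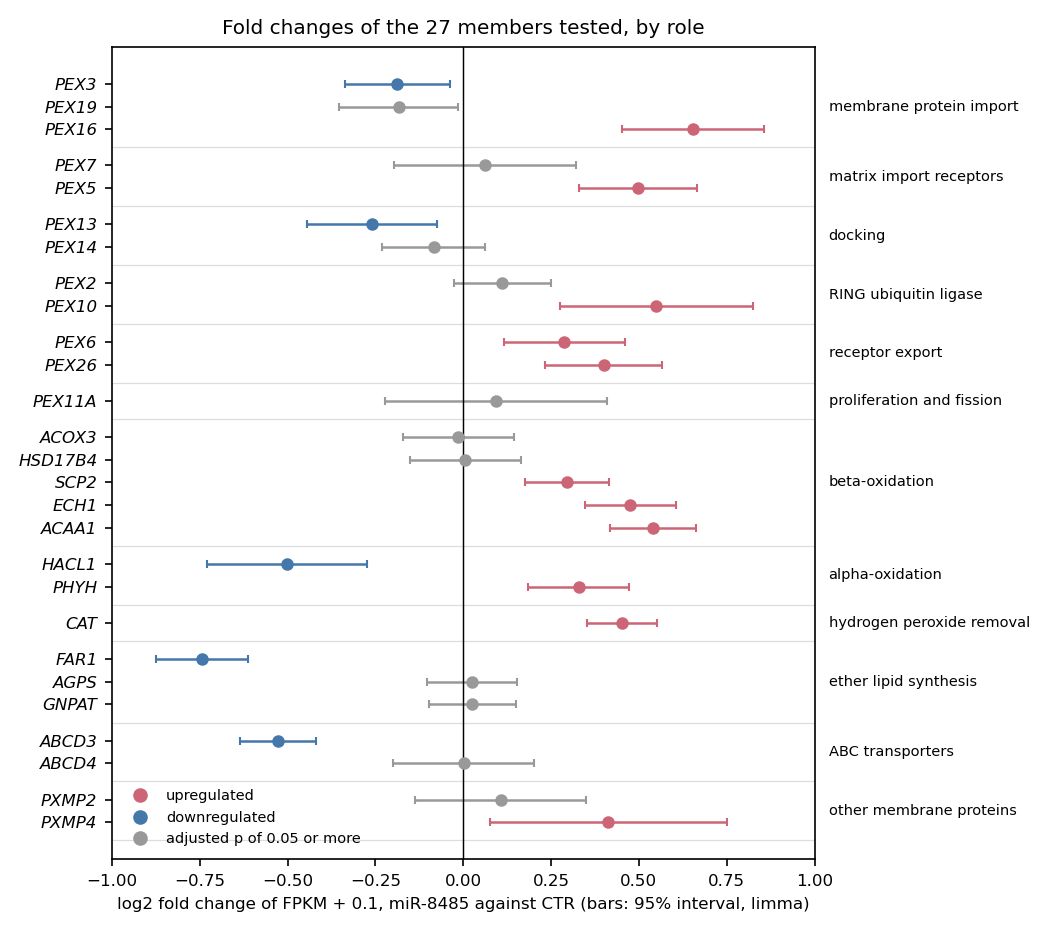
log2 fold change of FPKM + 0.1 between the miR-8485 and CTR libraries (horizontal axis, 3 libraries a group) for the 27 members tested, grouped by role, with 95% intervals from limma as bars. Upregulated and downregulated members stand in the same role only for membrane protein import (PEX16 and PEX3) and alpha-oxidation (PHYH and HACL1).

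Among the enzymes of beta-oxidation, ACAA1, SCP2 and ECH1 rose, while ACOX3 and HSD17B4 did not pass the test. ACAA1, the thiolase that completes the cycle, lies on the minus strand of chromosome 3 (38103129 to 38137242). It had 5.86, 5.62 and 5.64 FPKM in CTR and 8.52, 8.48 and 8.05 FPKM in miR-8485, a log2FC of 0.54 ± 0.05 (SE, limma adjusted p = 0.00011) with no overlap. SCP2, whose gene encodes a thiolase for branched chains and a sterol carrier protein, had 9.40, 9.21 and 8.86 FPKM in CTR and 11.5, 11.5 and 10.8 FPKM in miR-8485, a log2FC of 0.30 (limma adjusted p = 0.00177). ECH1, an isomerase for unsaturated fatty acids that is also found in mitochondria, lies on the minus strand of chromosome 19 (38815422 to 38832005). It had 20.4, 21.4 and 20.6 FPKM in CTR and 31.1, 28.1 and 27.8 FPKM in miR-8485, a log2FC of 0.48 (limma adjusted p = 0.00027). Its gene model shares 3058 bases with AC104534.1 on the opposite strand, which had a mean of 2.36 FPKM. For all of these enzymes the miR-8485 libraries stood above the CTR libraries, and their calls held in all 18 alternatives.

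ACOX3, an acyl-CoA oxidase for branched chains, had 3.97, 4.13 and 4.47 FPKM in CTR and 4.04, 4.15 and 4.23 FPKM in miR-8485. HSD17B4, the bifunctional protein of the middle steps, had 8.96, 8.49 and 9.37 FPKM in CTR and 8.35, 9.59 and 9.01 FPKM in miR-8485. The groups overlapped for both genes, with 95% intervals of the log2FC from -0.17 to 0.15 for ACOX3 and from -0.15 to 0.16 for HSD17B4. AMACR, the racemase that prepares branched chains, was low at 0.275, 0.206 and 0.148 FPKM in CTR and 0.276, 0.366 and 0.326 FPKM in miR-8485. These values rest on 13 to 32 fragments a library, with 24 in the highest CTR and also in the lowest miR-8485 library. In the fit of all 31768 genes above 0, AMACR had a log2FC of 0.46 with a 95% interval from -0.30 to 1.23 (limma adjusted p = 0.423). CROT, which converts shortened acyl groups to carnitine esters for export, was listed at 0 in 5 libraries and had 3 fragments in miR-8485 replicate 3.

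Alpha-oxidation removes a single carbon from branched fatty acids such as phytanic acid, and its 2 enzymes among the members changed in opposite directions. PHYH, the first enzyme, is on the minus strand of chromosome 10 (13277796 to 13302412). It rose from 4.41, 4.17 and 4.22 FPKM in CTR to 5.43, 5.59 and 5.12 FPKM in miR-8485, a log2FC of 0.33 ± 0.06 (SE, limma adjusted p = 0.00272). HACL1, the lyase of the next step, on the minus strand of chromosome 3 (15560704 to 15601852), fell from 3.67, 4.14 and 3.997 FPKM in CTR to 3.03, 2.81 and 2.44 FPKM in miR-8485, a log2FC of -0.50 ± 0.10 (SE, limma adjusted p = 0.00322). Neither gene had libraries that overlapped between the groups, and both calls held in all 17 alternatives.

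CAT encodes catalase, which splits hydrogen peroxide, and was the member with the highest level in both groups. Located on chromosome 11 (34438925 to 34472062), it had 24.0, 24.7 and 25.6 FPKM in CTR and 33.6, 34.1 and 34.0 FPKM in miR-8485. The groups were far apart relative to their spread, with a log2FC of 0.45 ± 0.04 (SE, limma adjusted p = 9.4e-05). CAT made up 10.9% of the summed mean FPKM of the 29 members in CTR and 13.6% in miR-8485.

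Of the genes of ether lipid synthesis, FAR1 had the largest fall of all members. FAR1 is the reductase that supplies the fatty alcohol, is anchored in the peroxisomal membrane, and lies on chromosome 11 (13668670 to 13732346). It had 16.2, 15.2 and 15.5 FPKM in CTR and 8.74, 9.58 and 9.57 FPKM in miR-8485, that is 1177 to 2190 fragments a library. No miR-8485 library came near the CTR range, and the log2FC of -0.74 ± 0.06 (SE, limma adjusted p = 3.4e-05) lay between -0.86 and -0.60 over 18 alternatives. GNPAT, the acyltransferase that starts the pathway, had 21.6, 22.1 and 19.9 FPKM in CTR and 22.0, 21.0 and 21.7 FPKM in miR-8485. AGPS, the synthase that exchanges the acyl group for the alcohol, had 10.7, 10.6 and 11.01 FPKM in CTR and 10.4, 10.9 and 11.6 FPKM in miR-8485. Both overlapped between the groups, and the 95% intervals of their log2FC values ran from -0.10 to 0.15. In the order of FPKM, FAR1 went from the fourth of the 29 members in CTR, above AGPS, to the tenth in miR-8485, below it. This order depends on the listed gene lengths. AGPS was at 0.661, 0.697 and 0.712 of the level of FAR1 in CTR and at 1.19, 1.14 and 1.21 in miR-8485.

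Of the 4 membrane proteins, ABCD3, an ABC transporter that brings long-chain and branched acyl-CoA into the peroxisome, fell. ABCD3 is on chromosome 1 (94418455 to 94518666) and had 10.7, 10.3 and 10.5 FPKM in CTR and 7.17, 7.36 and 7.20 FPKM in miR-8485. Its spread within a group was small beside the difference, with a log2FC of -0.53 ± 0.05 (SE, limma adjusted p = 6.9e-05) that held in all 18 alternatives. ABCD4, a related transporter known for its work on vitamin B12 in lysosomes, had 4.85, 4.48 and 3.98 FPKM in CTR and 4.66, 4.23 and 4.39 FPKM in miR-8485, with overlapping groups and a 95% interval of the log2FC from -0.20 to 0.20. PXMP4 had 1.11, 1.46 and 1.44 FPKM in CTR and 1.75, 1.90 and 1.75 FPKM in miR-8485, with no overlap and a log2FC of 0.41 (limma adjusted p = 0.0397). This call was lost without CTR replicate 1 (adjusted p = 0.085), CTR replicate 3 (0.0504) or any of miR-8485 replicates 1 to 3 (0.0797, 0.115 and 0.0798), with no filter (0.0848), with the replicate number as a block (0.0529) and after rescaling to TPM (0.0971). PXMP2, a channel of the membrane, had 1.93, 2.08 and 1.84 FPKM in CTR and 1.98, 2.08 and 2.27 FPKM in miR-8485, from 47 to 61 fragments a library, and its groups overlapped.

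The 3′ UTRs of the members were searched for matches to the seed of the mimic, the part of a miRNA that pairs with its targets. The seed, bases 2 to 8, is ACACACA, and pairs with TGTGTGT, which was searched on the transcript strand with overlapping copies counted. By the annotation of GENCODE release 44 on GRCh38, the longest annotated 3′ UTR held at least 1 copy in 9 of the 29 members (31.0%), against 31.4% of all tested genes with a 3′ UTR, and the 3′ UTR of the canonical transcript did in 7 members (24.1%) against 28.9%. The 7 were AGPS with 6 copies, ABCD3 with 4, AMACR with 3, FAR1 and GNPAT with 2, and PEX26 and PXMP4 with 1. AMACR lay below the filter of the tested genes, as did CROT, which held no copy. Of the 27 members tested, 6 held a copy in the canonical 3′ UTR. The copies of ABCD3 and FAR1, the members with the largest falls, are shown. Beside them stands 1 place each of AGPS, GNPAT, PEX26 and PXMP4, which did not fall. The other places of AGPS and those of AMACR are not shown. Sequences are given on the transcript strand and as DNA, with the copies, overlapping ones joined, in capitals.
ABCD3, first place, at chr1:94517674-94517700, plus strand: ctcattcctTGTGTGTGTcttggagtg
ABCD3, second place, at chr1:94517927-94517953, plus strand: agacaaattTGTGTGTGTtagaagccc
FAR1, first place, at chr11:13730657-13730681, plus strand: tgaattgtcTGTGTGTcttgcaaaa
FAR1, second place, at chr11:13730808-13730832, plus strand: cattaatttTGTGTGTttagagttc
AGPS, first place, at chr2:177540054-177540082, plus strand: tgtatgcaTGTGTGTGTGTGTatatatat
GNPAT, at chr1:231277746-231277772, plus strand: ctgacactaTGTGTGTGTtttaaaata
PEX26, at chr22:18091700-18091724, plus strand: cttcatagcTGTGTGTcattccgtt
PXMP4, at chr20:33706255-33706279, minus strand: ccttgcaaaTGTGTGTtttcgtccc

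Members with copies of the site were found in every class of change. Of the 6 members tested with a canonical site, FAR1 and ABCD3 were downregulated, PEX26 and PXMP4 were upregulated, and GNPAT and AGPS had log2FC values of 0.03 and 0.03. AGPS held 4 of its copies in a single run, the longest such run shown here, and ABCD3 and GNPAT share the same stretch of 9 bases. The share of genes with a copy was higher among genes with longer 3′ UTRs. In the bin of tested genes with 3′ UTRs of 1288 to 1707 bases, where ABCD3 lies with 1534, 26.4% held a copy, and in that of 3090 to 4382 bases, where FAR1 lies with 3572, 54.9% did. The 17321 bases of the PEX26 3′ UTR fall in the longest bin, where 71.0% of genes held one. Of the 5 downregulated members, PEX3, PEX13 and HACL1 held no copy in either 3′ UTR. Over the 10672 tested genes with a canonical 3′ UTR, the median log2FC was -0.16 for the 3085 with a site and 0.02 for the others. Genes without a site also had lower values where the 3′ UTR was long, and within the bin of ABCD3 the medians were -0.11 with and -0.03 without a site, and within that of FAR1 -0.18 and -0.09. A copy in these letters is not a measured site of binding, and which 3′ UTRs the cells used was not measured.

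**Figure D3:**
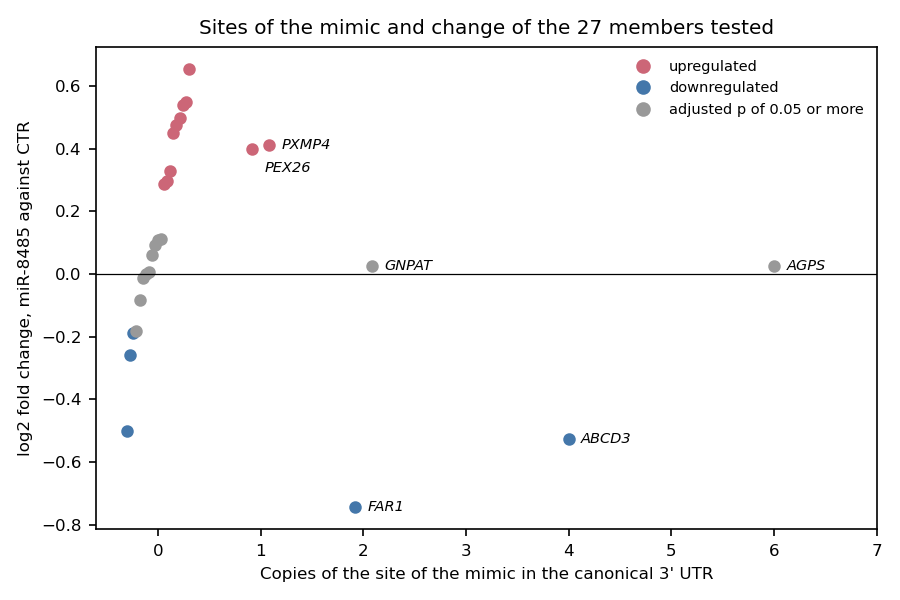
log2 fold change between the miR-8485 and CTR libraries (vertical axis) against the number of copies of the site of the mimic in the canonical 3′ UTR (horizontal axis) for the 27 members tested, coloured by the call in limma, with points spread sideways where they share a count. The 6 members with copies are named: ABCD3 with 4 and FAR1 with 2 lie below 0, AGPS with 6 and GNPAT with 2 near 0, and PEX26 and PXMP4 with 1 above 0.

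Of the 12 peroxins, 5 were upregulated and 2 downregulated, so that 58.3% were called. Of the 15 enzymes and membrane proteins tested, 6 were upregulated and 3 downregulated, so that 60% were called. Both shares were close to the 59.6% of all tested genes (29.1% upregulated and 30.5% downregulated). The median log2FC was 0.10 for peroxins and 0.03 for enzymes and membrane proteins, against -0.0041 for all tested genes. After rescaling to TPM, which moved the median of all tested genes to -0.12, these medians were -0.01 and -0.09, so their direction depended on the scaling, and relative to the median of all genes they stayed at 0.11 and 0.03. Per library, the median difference of the peroxins from the CTR mean lay between -0.01 and 0.02 in CTR and at 0.17, 0.18 and 0.04 in miR-8485 replicates 1 to 3. The count of 2 downregulated peroxins was 1 without CTR replicate 1 or 2, and 0 without CTR replicate 3, miR-8485 replicate 1 or miR-8485 replicate 3. The 2 calls are those of PEX3 and PEX13. Over all tested genes, 27.4% to 29.7% were downregulated in these runs. The falls of FAR1, ABCD3 and HACL1 were called with each library left out.

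By the route of import, the cargo of PEX7 (ACAA1, PHYH and AGPS) had a median log2FC of 0.33, and the 7 tested enzymes that PEX5 carries had a median of 0.03, with values from -0.50 for HACL1 to 0.48 for ECH1. The 5 proteins of the membrane, FAR1 included, had a median of 0.0009, with FAR1 and ABCD3 downregulated and PXMP4 upregulated. Summed over the genes of a class, the FPKM of the 13 enzymes was 129 to 130 in the CTR libraries and 145 to 147 in the miR-8485 libraries, while that of the 4 membrane proteins was 17.7 to 18.6 and 15.6. That of the 12 peroxins was 77.8 to 80.5 in CTR and 85.9 to 89.8 in miR-8485. The sum over all listed genes was higher in the miR-8485 libraries as well, at 351052 to 369643 against 322999 to 339641 in CTR, and the sums of the classes were not corrected for it.

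Ratios between members of the same pathway or complex, or of import and breakdown of fatty acids, which do not depend on the scaling of a library, were chosen after their values had been seen and are given as a description. The level of ACAA1 relative to ABCD3 was 0.548, 0.547 and 0.539 in CTR and 1.19, 1.15 and 1.12 in miR-8485 cells. On the FPKM scale the thiolase thus went from below the transporter to above it. That order depends on their listed lengths of 7106 and 7589 bases. PEX16 relative to PEX3 was 0.713, 0.701 and 0.583 in CTR and 1.35, 1.08 and 1.17 in miR-8485. GNPAT relative to FAR1 was 1.33, 1.45 and 1.29 in CTR and 2.52, 2.19 and 2.27 in miR-8485. For none of the 8 ratios did the groups overlap, but the pairs were picked with these values known. Taken singly, 66.5% of all tested genes had no overlap, and the share among other pairs was not computed. With 3 libraries against 3, an exact two-sided permutation test cannot give a p below 0.1, and gave this value for each.

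**Figure D4:**
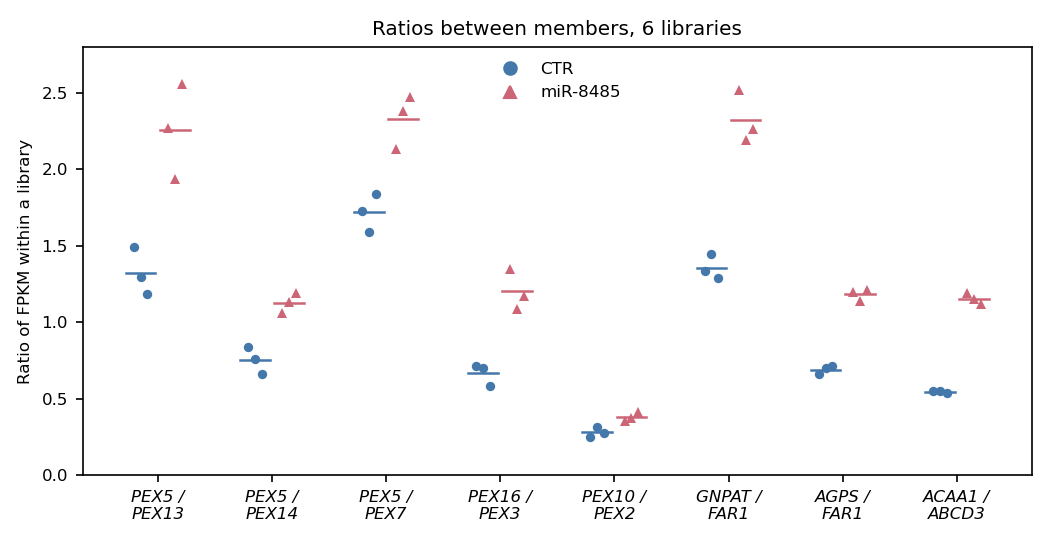
Ratio of the FPKM of a pair of members within each library (vertical axis, linear from 0) for 8 pairs, with circles for the 3 CTR libraries, triangles for the 3 miR-8485 libraries and lines at the group means. ACAA1 relative to ABCD3 moves from 0.545 to 1.15 on average with little spread, and in every pair the groups are separate. The pairs were chosen after their values had been seen.

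The base composition of the transcripts moved with the direction of change. The canonical transcripts of the 11 upregulated members had a GC content of 40.4% to 63.4% with a median of 54.0%, and those of the 5 downregulated members of 34.9% to 44.6% with a median of 38.5%. Over all tested genes, the median log2FC was -0.13 for the 3075 with the lowest GC content and 0.12 for the 3075 with the highest. With this trend removed, FAR1, ABCD3 and HACL1 kept their calls, PEX3 and PEX13 did not, PEX14 (log2FC -0.19, adjusted p = 0.0164 in limma) became a downregulated gene, and PEX2 (0.23, adjusted p = 0.0148) and AGPS (0.17, adjusted p = 0.026) became upregulated ones. Gene models of 5 members also overlap a neighbour with a mean of at least 1 FPKM, among them the upregulated PEX10 and ECH1. ACOX3 with TRMT44 and PEX14 with DFFA are others, and fragments from the shared bases could be lost or assigned to either gene. The part of GC content in the changes of the members was not tested beyond the removal of its trend.

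Beyond the members, a list of 62 other genes of peroxisomes and their regulation was drawn up by function. Earlier results of these data were known when it was drawn up. Of the 49 that could be tested, 23 were upregulated and 9 downregulated, or 46.9% and 18.4%, against 29.1% and 30.5% of all tested genes, with a median log2FC of 0.21. After rescaling to TPM the counts were 16 and 12, or 32.7% and 24.5%, against 21.2% and 38.3% of all tested genes. PEX11G, a relative of PEX11A, had the largest rise, with 0.994 ± 0.172 FPKM (SD, n = 3) in control cells and 2.78 ± 0.296 FPKM (SD, n = 3) after miR-8485, a log2FC of 1.41 (limma adjusted p = 0.00021) from 22 to 81 fragments a library. It was followed by ACBD4, an acyl-CoA binding protein of the membrane, with 1.11, TYSND1, the protease that trims imported enzymes, with 1.10, DECR2, a reductase for unsaturated fatty acids, with 1.06, and MLYCD, malonyl-CoA decarboxylase, with 1.005. The canonical 3′ UTR of MLYCD, of 11542 bases and thus in the longest bin, where 71.0% of genes held a copy, had 18 copies of the site of the mimic. That of PPARD, of 2099 bases in a bin where 37.4% held one, had 1 copy. That of PPARA, of 8375 bases in the longest bin, also had 1. Those of PEX11G, ACBD4, TYSND1, DECR2, EHHADH, PPARG, ACOX2, IDI1 and ACBD5 had none. Chosen after its values were seen, EHHADH, the other bifunctional protein of beta-oxidation, was upregulated by 0.54 (adjusted p = 0.00159).

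The largest fall among the tested genes of this list was that of PPARD, a nuclear receptor that activates genes of fatty acid oxidation. It went from 23.2, 23.0 and 25.03 FPKM in CTR to 9.54, 9.30 and 10.1 FPKM in miR-8485, a log2FC of -1.29 ± 0.06 (SE, limma adjusted p = 3.9e-06). PPARG of the same family had 20.9 ± 1.80 FPKM (SD, n = 3) in control cells and 16.0 ± 0.467 FPKM (SD, n = 3) after miR-8485 (log2FC -0.38, adjusted p = 0.00228). PPARA, the family member best known for control of peroxisomal genes, was chosen after its values were seen. It was below the filter with a mean of 0.836 FPKM, and fell from 1.01, 1.26 and 1.15 FPKM to 0.535, 0.494 and 0.564 FPKM, a log2FC of -0.97 (adjusted p = 0.0103 in the limma fit of all genes above 0, where 22.1% of genes were called). The other large falls among tested genes were those of ACOX2, the oxidase of bile acid precursors, with -1.002 from 49 to 120 fragments a library, IDI1 of isoprenoid synthesis with -0.91, and ACBD5, a membrane protein that binds acyl-CoA and tethers peroxisomes to the endoplasmic reticulum, with -0.50. ACBD4 and ACBD5, related in sequence, thus changed in opposite directions.

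**Figure D5:**
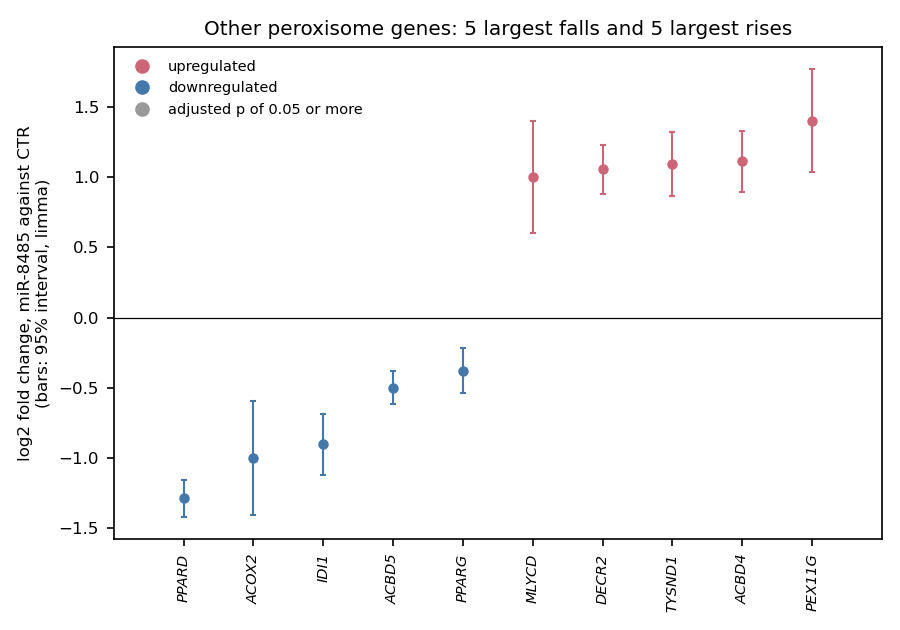
log2 fold change between the miR-8485 and CTR libraries (vertical axis, 95% intervals from limma as bars) of the 5 largest falls and 5 largest rises past the threshold among the 49 genes of the list of other peroxisome genes with a mean of at least 1 FPKM, in order of their fold change. PPARD is the lowest at -1.29 and PEX11G the highest at 1.41.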

How the data were processed

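RNA-seq was analysed in 6 libraries of HCT116 cells, 3 CTR and 3 miR-8485, grouped by their titles. The authors ran fastp, HISAT2 (version 2.0.5, on hg38) and, to count fragments per gene, featureCounts (version 1.5.0-p3), per the submitters' processing notes and the paper. The values deposited by the authors are FPKM. In each library 100% of the values above 0 were whole fragments within 0.01 of a fragment, which gave 17473874 to 18480047 fragments on listed genes, and a depth by the unit itself of 17961005 to 19046342. The precision of a gene follows from its own fragments.

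The members and lists were chosen with earlier results of these data known. All members are named, and of the other peroxisome genes the 5 largest rises and 5 largest falls past the threshold among those with a mean FPKM of at least 1. EHHADH and PPARA were named in addition, after their values were seen. Some results are not reported here. A two-sided limma test (version 3.58.1, R 4.3.3, variance trend) was run on log2(FPKM + 0.1) where a gene's mean FPKM reached 1 (12349 genes), with Benjamini-Hochberg adjustment. Members below this level come from a second fit, of the 31768 genes above 0. The procedure was tested on simulated data. Few genes were changed in those data, whereas 59.6% of the tested genes were called here. Figures used matplotlib 3.10.9. 3′ UTRs came from GENCODE release 44.

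The alternatives were pseudocounts of 1 and 0.01, no filter, a stricter filter (mean FPKM 5), TPM, median-of-ratios scaling, removal of the length trend, no variance trend, voom on the recovered fragments, a replicate block and each library left out. Removal of the GC trend (known for 12298 genes), values per non-mitochondrial fragment and voom on all genes above 0 were added after seeing the data.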

Additional observations from a re-analysis of the deposited data

How the results depend on the processing

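Of the 16 called members, 12 kept direction and call in every alternative run, and PEX3, PEX13, PEX6 and PXMP4 lost their call in at least 1. The libraries showed no sign of pairing by replicate number, as deviations of same-numbered libraries correlated at 0.0668, 0.0335 and -0.0640. The labels do not say whether same-numbered libraries were handled together. With the replicate block, PXMP4 (log2 fold change 0.41, adjusted p = 0.0529) was the only member whose call changed. Without a filter, the members downregulated numbered 3 (main 5), the peroxins downregulated 0 (main 2), the enzymes and membrane proteins median log2 fold change was 0.11 (main 0.03) and the other peroxisome genes median log2 fold change 0.15 (main 0.21). The share of all genes downregulated fell as well, from 30.5% to 11.3%, and the 3 members were 10.3%. At a mean FPKM of at least 5, fewer genes were tested, the members upregulated numbered 7 (main 11), the peroxins upregulated 3 (main 5) and the other peroxisome genes upregulated 15 (main 23), and the members median log2 fold change, peroxins median log2 fold change and other peroxisome genes median log2 fold change were 0.026, 0.014 and 0.15. The 7 were 41.2% of the 17 members tested, the 3 were 37.5% of the 8 peroxins and the 15 were 45.5% of the 33 other genes. Of all genes tested there, 33.5% were upregulated. Rescaling to TPM moved the median of all tested genes from -0.0041 to -0.12, and 35.6% of called genes were then upregulated where 48.8% had been. It turned the members median log2 fold change to -0.019, the peroxins median log2 fold change to -0.011 and the enzymes and membrane proteins median log2 fold change to -0.089, brought the other peroxisome genes median log2 fold change to 0.098, and gave 4 peroxins downregulated. These 4 were 33.3% of the peroxins, against 38.3% of all tested genes. The peroxins downregulated numbered 1 without a variance trend, in voom on the recovered fragments or on all genes above 0, per non-mitochondrial fragment and with the GC trend removed. This was 8.33% of the peroxins, against 13.6% to 31.5% of all genes tested in those runs. The members median log2 fold change was 0.13 with the length trend and 0.14 with the GC trend removed, and the enzymes and membrane proteins median log2 fold change was 0.13 and 0.092 likewise, 0.054 per non-mitochondrial fragment and 0.11 in voom on all genes above 0. With each library left out, the members downregulated ranged from 3 to 5, the peroxins downregulated from 0 to 2, the members median log2 fold change from 0.069 to 0.13 and the enzymes and membrane proteins median log2 fold change from 0.022 to 0.066. The members downregulated were then 11.1% to 18.5%, against 27.4% to 29.7% of all tested genes. Where no cause is given, the cause was not tested.

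Values that changed sign belonged to members not called in the reported fit. After rescaling to TPM, the log2 fold changes were -0.053 for PEX7, -0.0036 for PEX2, -0.019 for PEX11A, -0.11 for HSD17B4, -0.089 for GNPAT, -0.090 for AGPS, -0.11 for ABCD4 and -0.0028 for PXMP2. With the length trend removed they were -0.093 for PEX7, -0.0060 for GNPAT and -0.10 for PXMP2, with median-of-ratios scaling -0.00056 for HSD17B4 and -0.0056 for ABCD4, with the GC trend removed -0.020 for ABCD4, and per non-mitochondrial fragment 0.014 for ACOX3. Over the libraries left out in turn, the values ran from -0.051 to 0.13 for PEX7, -0.059 to 0.19 for PEX11A, -0.051 to 0.033 for ACOX3, -0.041 to 0.057 for HSD17B4, -0.018 to 0.056 for GNPAT, -0.016 to 0.060 for AGPS and -0.073 to 0.066 for ABCD4. Depth limited AMACR, CROT and PXMP2 most, with at most 32, 3 and 61 fragments a library.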
